A study of Mus musculus with 14 samples.

Results

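AHCY, S-adenosylhomocysteine hydrolase, was mapped on chromatin in mouse embryonic stem cells, and the regions described here are its broad peaks, those at least 3000 bp wide in replicate 1. They were chosen from the replicate 1 peak list by width alone, whatever their score, on 16 chromosomes (1 to 5, 7, 9, 10 and 12 to 19). The rule gave 276 broad peaks among 3600 peaks on these chromosomes, and 4465 in the whole list. The other 3324 peaks on the same chromosomes, called narrower peaks here, are the comparison. Positions are on the mouse build mm9 and are counted from 1.

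AHCY splits S-adenosylhomocysteine into adenosine and homocysteine. S-adenosylhomocysteine is what remains of S-adenosylmethionine after a methyl group has been passed on, and it inhibits the methyltransferases that act on histones, DNA and RNA, so its removal keeps methylation going. Proteins and marks on chromatin differ in how far they spread: many transcription factors lie at short sites, while marks such as trimethylated lysine 4 of histone H3 can extend over several kilobases around active promoters. Peak width is therefore a feature of interest beside peak strength, although a caller's width also reflects how it joins neighbouring signal.

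The series holds 14 libraries from wild-type E14 cells, a male embryonic stem cell line of the 129/Ola strain, and from the same cells with a control hairpin or with hairpins against Ahcy. All were kept in serum-free N2B27 medium with LIF, the MEK inhibitor PD0325901 (1 µM) and the GSK3 inhibitor CHIR99021 (3 µM). The values below come from 2 wild-type ChIP-seq libraries, replicates 1 and 2, precipitated with a rabbit antibody against AHCY. The labels do not say whether these replicates were separate cultures. The IgG library and the 11 RNA-seq libraries are not analysed here. Replicate 2 had 11733 peaks, of which 4762 lay on the 16 chromosomes. A peak list gives no read numbers, so the depth behind each peak is unknown. Each peak carries a score from the authors' peak caller whose scale is not stated, and the lowest score in either list is 50. A single library chose the broad peaks and a single library read them, so no test over samples is possible. Shares are given with exact 95% intervals (Clopper-Pearson), and differences of shares with 95% Newcombe intervals. Both kinds of interval allow for counting error alone, and they treat adjacent peaks as if they were separate sites.

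Broad peaks made up 7.67% of the replicate 1 peaks on these chromosomes (6.82 to 8.58%) and 16.4% of the bases under peaks, 1039414 of 6327512 bp. Their widths had a median of 3540 bp, an interquartile range of 3215 to 4017 bp and a maximum of 7525 bp. The median of the narrower peaks was 1503.5 bp. There was no gap in width at the limit. Of the broad peaks, 127 were under 3500 bp, 79 lay between 3500 and 4000 bp, 49 between 4000 and 5000 bp, and 21 were 5000 bp or wider. The 5 peaks just inside the limit measured 3002 to 3012 bp, with scores of 84.4, 57.8, 95.6, 89.9 and 67.97. The 5 just outside measured 2985 to 2999 bp, with scores of 131.4, 103.7, 53.3, 102.2 and 50.2. The members on either side of the limit thus had similar widths and overlapping scores.

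**Figure D1:**
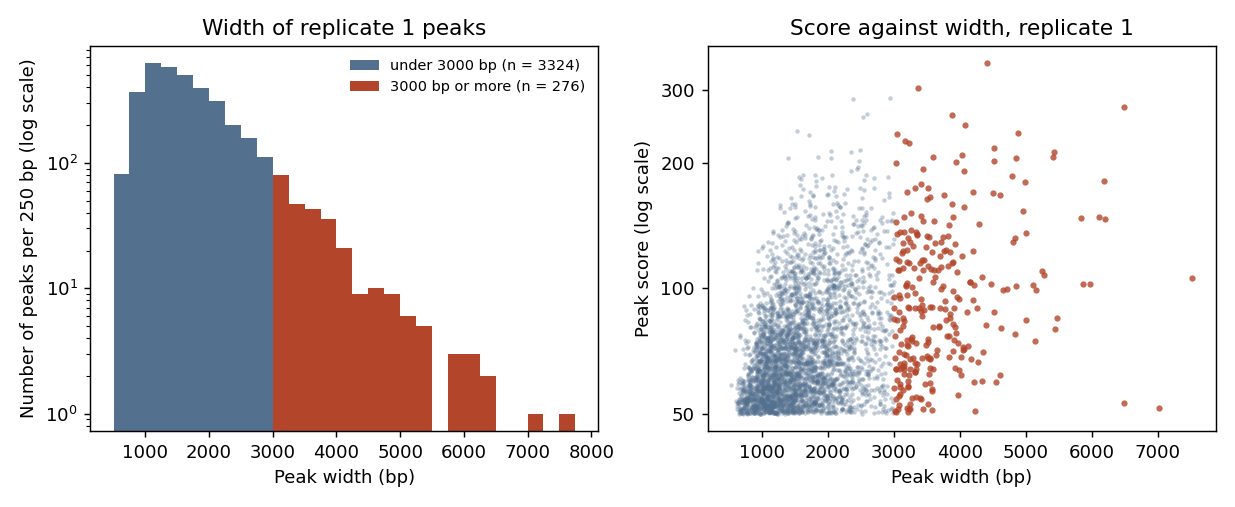
Left, number of replicate 1 peaks per 250 bp of width (log scale) on the 16 chromosomes. Right, the score of each peak (log scale) against its width, 1 point per peak; 276 broad peaks are in red and 3324 narrower peaks in blue, and the widths run on without a gap across 3000 bp, up to 7525 bp.

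The widest broad peak lay on chromosome 2 at 31491139 to 31498663, with a width of 7525 bp and a score of 105.9 (rank 496 of the 3600 scores). The next, on chromosome 5 at 149921238 to 149928258, was 7021 bp wide but scored only 51.7 (rank 3339). The third, on chromosome 1 at 135257392 to 135263876, was 6485 bp wide and also scored low, at 53.1 (rank 3150). Great width thus did not always come with a high score. The next 2 did score high. They lay on chromosome 17 at 34087169 to 34093651 (6483 bp, score 273.2, rank 5) and on chromosome 5 at 120880556 to 120886754 (6199 bp, score 146.6, rank 132). No gene is named for any region, because no annotation of mm9 was at hand.

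Within replicate 1 the broad peaks tended to be the stronger ones. Their scores had a median of 90.2 (interquartile range 68.1 to 125.8), against 66.4 (56.5 to 84.9) for the narrower peaks. Of the broad peaks, 214 of 276 (77.5%) scored at or above the median of all 3600, and 35 were among the best 100. The best score of all 3600, 346.9, belonged to a broad peak of 4412 bp on chromosome 15 at 61815519 to 61819930. The second best, 302.9, was also broad, at 3365 bp on chromosome 5 at 129105353 to 129108717. The remaining 3 of the 5 best-scoring broad peaks were the wide region of chromosome 17 named above, chromosome 5 at 149862097 to 149865976 (260.2) and chromosome 9 at 57349039 to 57353111 (246.6). Across the 276 broad peaks, width and score were only loosely related (Spearman's rho 0.25), and across the 3324 narrower peaks rho was 0.34. Both measures come from the list that chose the peaks, so these values are a description.

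Every one of the 16 chromosomes held broad peaks, but in unequal shares. They were most frequent on chromosome 17, at 30 of 247 peaks (12.1%, 8.35 to 16.9%), and on chromosome 9, at 28 of 270 (10.4%, 7.002 to 14.6%). Chromosome 15 had 18 of 183 (9.84%) and chromosome 7 had 30 of 311 (9.65%). The lowest shares were on chromosome 13, at 8 of 193 (4.15%, 1.81 to 8.004%), chromosome 3, at 9 of 199 (4.52%), and chromosome 12, at 8 of 164 (4.88%). The interval of chromosome 17 lay above that of chromosome 13, while neighbours in this order overlapped widely. These shares, too, describe the list the rule used.

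Replicate 2 shows which of these regions were found again in a library that took no part in choosing them. Of the 276 broad peaks, 155 (56.2%, 50.1 to 62.1%) overlapped a replicate 2 peak by 1 bp or more, against 46.6% of all 3600 peaks. The narrower peaks did so in 1524 of 3324 cases (45.8%, 44.1 to 47.6%). The difference was 10.3 percentage points (4.17 to 16.3). A wide peak meets another peak more easily at a limit of 1 bp, and the median widths were 3540 and 1503.5 bp. How much of the difference follows from width alone was not tested. The share of broad peaks was the higher on 12 of the 16 chromosomes and the lower on 4, namely chromosomes 1, 2, 12 and 18. It ran from 3 of 7 on chromosome 18 to 7 of 8 on chromosome 16.

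Where a broad peak was found again, the replicate 2 peak was usually narrower. For each of the 155 broad peaks found again, the replicate 2 peak that shared most bases with it is called its partner here. A replicate 2 peak counts once for each broad peak it partners, as that of chromosome 4 at 135104380 to 135106464 did. The median partner width was 2515 bp (interquartile range 1896.5 to 3251.5 bp), and in 133 of the 155 (85.8%) the partner was narrower than the replicate 1 peak. Partners of narrower peaks had a median of 1505 bp (1187.75 to 1916 bp), and 911 of 1524 (59.8%) were narrower than their replicate 1 peak. The partners of broad peaks were thus wider than those of narrower peaks. The broad peaks were chosen for large width in replicate 1, so a narrower partner follows in part from that choice. Choosing by replicate 2 width gave the like, with a median of 2983 bp in replicate 1 for peaks of at least 3000 bp in replicate 2. Among narrower peaks the widths in the replicates were related (Spearman's rho 0.55 over 1524 pairs of peaks from 1 pair of libraries), and among broad peaks less so (rho 0.13 over 155 pairs). By definition the broad peaks hold only the upper end of the range of widths, and the difference between these values was not tested.

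**Figure D2:**
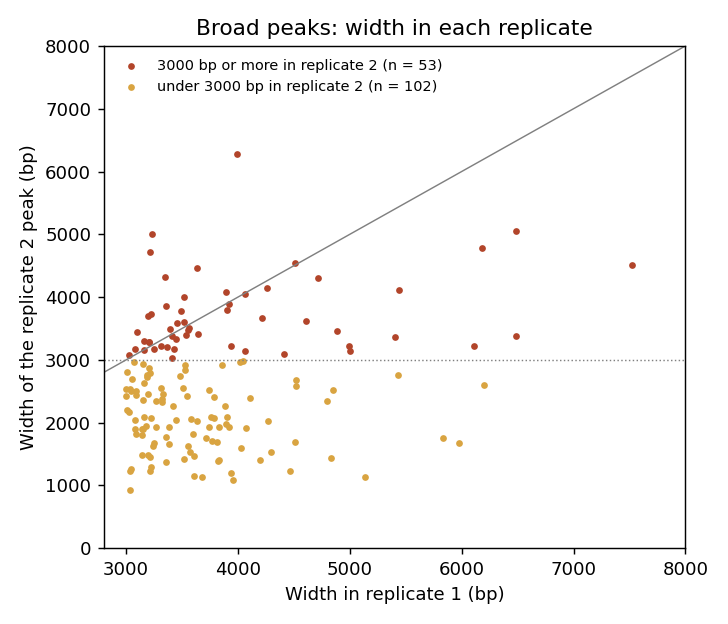
Width of each broad peak in replicate 1 against the width of its replicate 2 partner, for the 155 with a partner; the line marks equal width and the dotted line 3000 bp. Most points lie under the line, 53 above the dotted line and 102 below it.

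The broad peaks fell into 3 classes by what replicate 2 showed. In 53 of them (19.2%, 14.7 to 24.4%) the partner was also at least 3000 bp wide, against 3.03% of all 3600 peaks, and against 56 of the 3324 narrower peaks (1.68%, 1.28 to 2.18%). In another 102 (36.96%) the partner was under 3000 bp, against 1468 of the 3324 narrower peaks. The remaining 121 (43.8%, 37.9 to 49.9%) had no partner, against 1800 of the 3324 narrower peaks. Of all 3600 peaks, 46.6% had a partner. The classes hardly differed in replicate 1 width, with medians of 3549, 3497 and 3574 bp. They did differ in replicate 1 score, with medians of 116.0, 102.2 and 76.5. Their interquartile ranges overlapped, at 89.5 to 167.7, 75.4 to 134.2 and 64.0 to 101.8.

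In the 53 regions that were broad in both replicates the partners scored a median of 155.97 (interquartile range 101.8 to 210.6), with a median rank of 385 among the 4762 replicate 2 peaks of these chromosomes. Partners under 3000 bp scored a median of 80.9 (67.4 to 123.0), with a median rank of 1998.5. A median of 92.6% of the bases of a region broad in both was covered in replicate 2 (interquartile range 77.4 to 98.0%), against 56.3% (43.3 to 71.7%) where the partner was under 3000 bp. The classes are defined by replicate 2 width, which went with replicate 2 score over the 155 broad peaks with a partner (Spearman's rho 0.56), so these values are a description. The best-scoring partner of all, at 384.2, was in the class under 3000 bp.

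The widest partner measured 6272 bp. It belonged to a broad peak of 3995 bp on chromosome 9 at 62991942 to 62995936, with scores of 94.2 in replicate 1 and 349.2 in replicate 2, and reached 2476 bp past its lower end. The low-scoring wide peak of chromosome 1 at 135257392 had a partner of 5055 bp that lay wholly inside it and scored 105.5. This region was thus wide in both libraries. Its score was low in replicate 1 only, as the partner had rank 1138 of the 4762 replicate 2 peaks. On chromosome 2 at 167364011 to 167367238 a broad peak of 3228 bp (score 115.1) lay entirely within a partner of 5004 bp (185.8). The region of chromosome 5 at 33771864 to 33778049 measured 6186 bp in replicate 1 and 4787 bp in replicate 2, with scores of 181.3 and 313.6. The region of chromosome 10 at 41995721 to 41998935 measured 3215 and 4724 bp, with scores of 132.2 and 343.4. In 3 of these 5 regions, which were picked for the widest partners, the replicate 2 peak was the wider one. Over all 155 broad peaks with a partner, the partner was narrower in 133.

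A few regions had almost the same borders in both libraries. On chromosome 14 at 22803769 to 22807827 the replicate 1 peak measured 4059 bp and the replicate 2 peak 4053 bp, with borders 6 and 12 bp apart and scores of 190.9 and 238.2. On chromosome 10 at 79611315 to 79615828 the widths were 4514 and 4539 bp, with borders 42 and 17 bp apart and scores of 87.7 and 190.9. Both are the widest broad peak of their chromosome.

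In some other wide regions the replicate 2 peak marked only a small stretch. The widest broad peak of chromosome 3, at 87774082 to 87779219 (5138 bp, score 74.8), met a partner of 1141 bp that covered 22.2% of it. The widest on chromosome 19, at 7340705 to 7346678 (5974 bp, score 102.3), met one of 1678 bp (28.1%). The widest on chromosome 7, at 133413010 to 133418846 (5837 bp, score 147.3), met one of 1750 bp (29.98%) close to its middle, and the widest on chromosome 16, at 18775591 to 18779885 (4295 bp, score 143), one of 1538 bp (35.8%). Chromosome 9 at 114468909 to 114474339 combined strong scores with unequal widths: 5431 bp and 213.1 in replicate 1, 2758 bp and 384.2 in replicate 2, the latter rank 5 of the 4762. Chromosome 13 at 114405282 to 114409801 was similar, with 4520 bp and 216.9 against 2674 bp and 261.3. The widest on chromosome 12, at 112213160 to 112217377, scored 59.6 at 4218 bp in replicate 1 and 115.7 at 3671 bp in replicate 2. In these regions of chromosomes 9, 13 and 12 the replicate 2 peak covered 50.8, 59.2 and 70.2% of the broad peak.

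The borders of a broad peak and its partner are given as a description, since peaks chosen for width in replicate 1 are bound to reach past their partners more often. In 77 of the 155 (49.7%) the replicate 2 signal ended inside the broad peak on both sides, in 33 it reached past the lower end only, in 38 past the higher end only, and in 7 (4.52%) it reached both ends or past them. Of narrower peaks with a partner, 30.6% had a partner ending inside on both sides and 15.3% one that reached both ends. The midpoints of a broad peak and its partner lay a median of 459 bp apart, against 165 bp for narrower peaks. Averaged over all 276 broad peaks, replicate 2 coverage was highest near the middle: 47.5% had a replicate 2 peak at the midpoint, 34.8 and 39.9% at 1000 bp to either side, and 25.4 and 27.5% at 1500 bp, although every broad peak reaches that far. At 5000 bp to either side, past the ends of the broad peak itself, 4.71 and 3.62% still had a replicate 2 peak. For the narrower peaks the shares were 1.29 and 1.11%. Such positions can lie inside a neighbouring broad peak, as in a close pair on chromosome 7 (144504558 and 144508531).

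**Figure D3:**
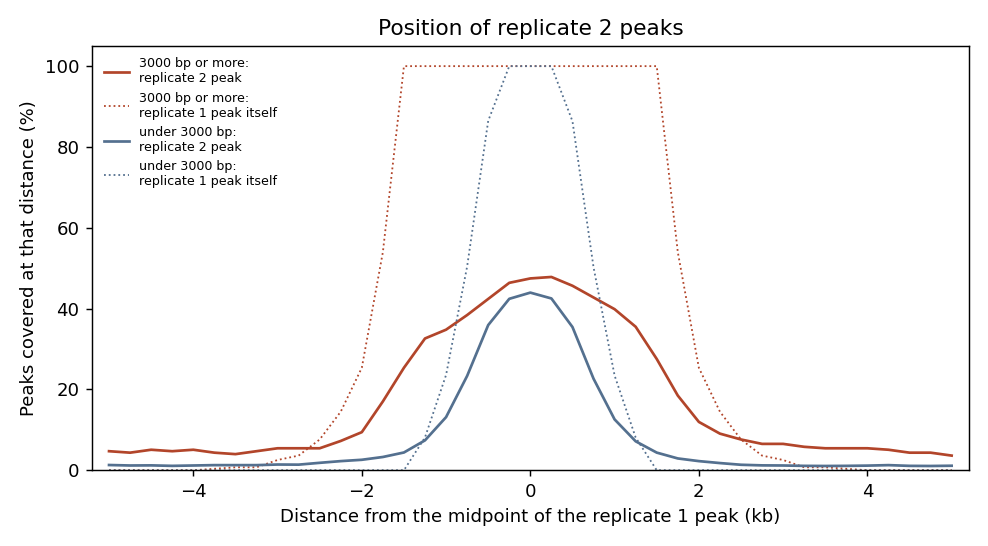
Share of peaks covered by a replicate 2 peak (solid) or by the replicate 1 peak itself (dotted) at each distance from the replicate 1 midpoint, in steps of 250 bp; 276 broad peaks in red, 3324 narrower peaks in blue. Replicate 2 coverage of broad peaks falls from 47.5% at the midpoint to 25.4 and 27.5% at 1500 bp, where all broad peaks still extend.

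In 10 of the 155 broad peaks (6.45%, 3.14 to 11.5%) there were 2 replicate 2 peaks in place of 1, which happened in 11 of 1524 narrower peaks (0.722%, 0.361 to 1.29%). None had more than 2. The widest broad peak was among them: the stretch at 31491139 of chromosome 2 met 2 peaks that together spanned 9782 bp and covered 56.9% of it, leaving its midpoint free. On chromosome 17 at 34087169 the 2 peaks spanned 6625 bp and covered 81.1% of the 6483 bp. On chromosome 5 at 120880556 they spanned 7950 bp and covered 42.1%, and on chromosome 15 at 75719840 to 75725945 (6106 bp, score 148.6) they spanned 5913 bp and covered 69.9%. The widest broad peak of chromosome 4, at 109650415 to 109655415 (5001 bp, score 135.5), met 2 peaks spanning 6868 bp that covered 53.4% of it. In 8 of the 10 regions the 2 replicate 2 peaks together spanned more than the broad peak. A wider peak has more room to meet 2 replicate 2 peaks, so the shares of 6.45 and 0.722% are a description.

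The share with a partner was also counted by 3 rules under which a mere touch at the edge does not count. Where at least 50% of the shorter of both peaks had to be shared, 153 of 276 broad peaks had a partner (55.4%, 49.4 to 61.4%), against 45.7% of all 3600, and 1492 of 3324 narrower peaks did (44.9%, 43.2 to 46.6%). The difference was 10.5 percentage points (4.41 to 16.5), as large as with 1 bp. Under this rule, too, a wide peak has more room to take in a narrower partner. The midpoint of a broad peak lay in a replicate 2 peak in 131 of 276 cases (47.5%, 41.4 to 53.5%), against 44.2% of all 3600, and that of a narrower peak in 1461 of 3324 (43.95%, 42.3 to 45.7%). The difference was 3.51 percentage points, with an interval from -2.55 to 9.63. Where each peak had to cover at least 50% of the other, which a broad peak cannot meet with a much narrower partner, the share was 110 of 276 for broad peaks (39.9%, 34.0 to 45.9%), against 41.9% of all 3600, and 42.1% for narrower peaks. This difference, -2.20 percentage points, had an interval from -8.05 to 3.91. By bases, 37.2% of the bases in broad peaks and 39.3% of those in narrower peaks lay in a replicate 2 peak. The difference in bases was -2.06 points. Its interval, -7.68 to 4.13, is only approximate. It treats the share of bases as a share of whole peaks, although the cover of single peaks ran from 0 to 100%. The surplus of broad peaks with a partner was thus seen with a limit of 1 bp and with 50% of the shorter peak. By midpoint and mutual cover the interval of the difference included 0, as did the approximate interval by bases.

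By width, the share with a partner of 1 bp or more was 24.9% among peaks under 1000 bp, 45.2% from 1000 to 1500 bp and 54.9% from 2000 to 2500 bp. It then stayed near that level, at 58.3% (49.2 to 66.95%) from 3000 to 3500 bp, 54.4% from 3500 to 4000 bp, 51.0% from 4000 to 5000 bp and 61.9% (38.4 to 81.9%) in the 21 widest. The share with the midpoint covered was 51.97% from 3000 to 3500 bp and 33.3% (14.6 to 57.0%) in the 21 widest. With mutual cover of 50% it was 48.0% (39.1 to 57.1%) and 28.6% (11.3 to 52.2%). The intervals of these 2 width classes overlap under both rules.

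**Figure D4:**
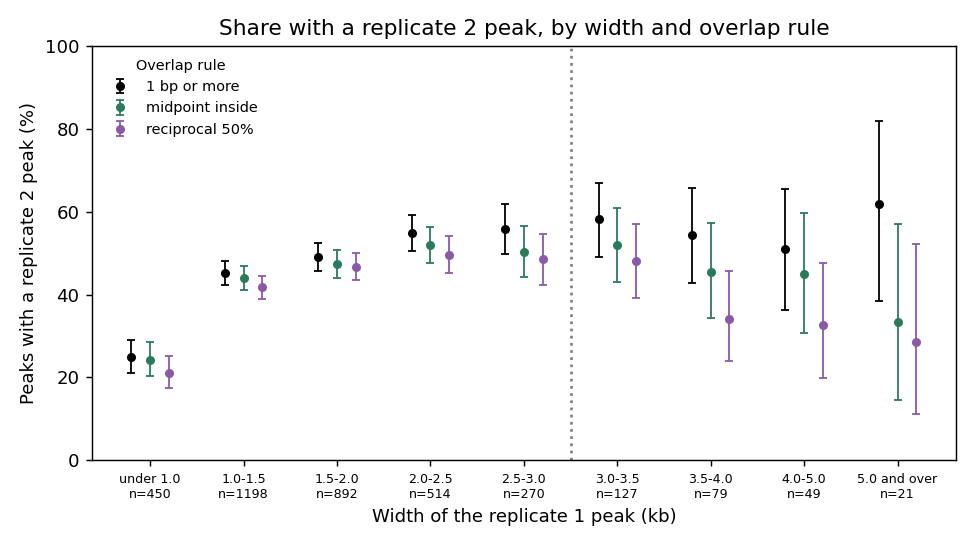
Share of replicate 1 peaks with a replicate 2 peak by width, under 3 overlap rules, with exact 95% intervals; the dotted line marks 3000 bp. The share rises from 24.9% under 1000 bp to 54.9% at 2000 to 2500 bp and then shows no further rise beyond the intervals.

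Broad peaks scored higher than narrower ones, so the share was also compared within 4 equal groups of the 3600 peaks by replicate 1 score. Of the broad peaks, 152 of 276 (55.1%) lay in the best-scoring group (87.73 or more). There 107 of them had a partner (70.4%, 62.5 to 77.5%), against 71.9% (68.5 to 75.1%) of the narrower peaks. Scores were not alike within this group, with a median of 122.1 in broad and 107.1 in narrower peaks. In the next group (67.37 to 87.67) 24 of 62 broad peaks had one (38.7%, 26.6 to 51.9%), against 52.9% (49.5 to 56.3%), a difference of -14.2 percentage points (-25.8 to -1.32). In the group from 56.91 to 67.35 it was 18 of 37 (48.6%, 31.9 to 65.6%) against 36.4%, and in the lowest it was 6 of 25 (24%, 9.36 to 45.1%) against 26.1%. Within score groups the share was thus lower in broad peaks in 3 of 4, beyond the interval of the difference only from 67.37 to 87.67. It was higher in the group from 56.91 to 67.35, with an interval from -3.33 to 28.0 points. With the narrower peaks weighted to the scores of the broad ones, a setting chosen after the values were seen, the difference was -2.57 points by 4 score groups and -4.07 by 10. In the share of bases covered it was then -10.8 points by 4 groups and -11.6 by 10. Among the best 100 scores, 30 of 35 broad peaks and 57 of 65 narrower peaks had a partner.

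**Figure D5:**
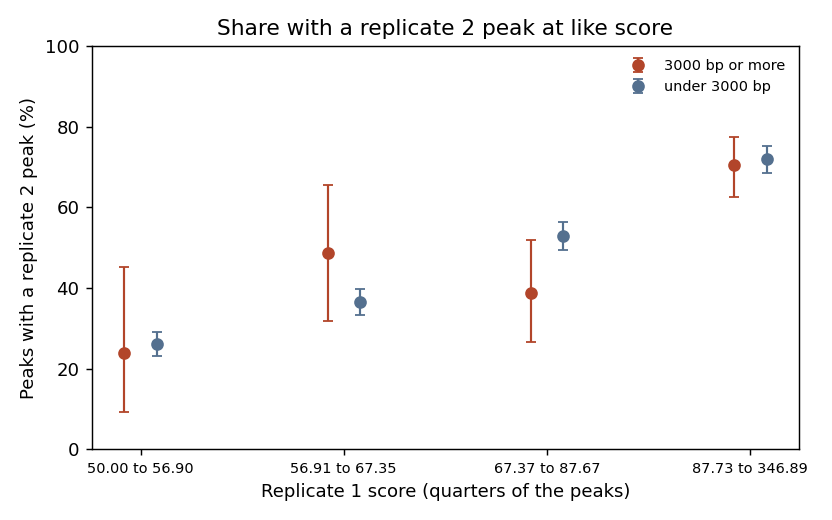
Share of broad (red) and narrower (blue) peaks with a replicate 2 peak of 1 bp or more, in 4 equal groups by replicate 1 score, with exact 95% intervals. The share rises with score in narrower peaks, from 26.1 to 71.9%, and reaches 70.4% in broad peaks of the best-scoring group.

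The 121 broad peaks without a partner were not all far from replicate 2 signal. A replicate 2 peak lay less than 5 kb away in 20 of them (16.5%, 10.4 to 24.4%) and less than 20 kb away in 54 (44.6%, 35.6 to 53.9%). For the 1800 narrower peaks without a partner these shares were 8.11% (6.89 to 9.47%) and 22.4% (20.5 to 24.4%). The median distance was 24809 bp for broad and 61286 bp for narrower peaks. The widest without a partner was the low-scoring stretch of chromosome 5 at 149921238. It was followed by chromosome 5 at 143719317 to 143725186 (5870 bp, score 102.5), chromosome 17 at 31969696 to 31975168 (5473 bp, 85.1) and 56426226 to 56431505 (5280 bp, 107.5), and chromosome 7 at 26452768 to 26458008 (5241 bp, 110.1). Their nearest replicate 2 peaks lay between 13063 bp and 48663 bp away, apart from the first, at 314621 bp. The widest broad peak of chromosome 18, at 61111394 to 61115354 (3961 bp, score 109.7), had none either.

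Of the 1800 narrower peaks without a partner, 360 had no replicate 2 peak within 200 kb. This was not more frequent among broad peaks without a partner. The share with a replicate 2 peak less than 200 kb away had an interval of 79.4 to 92.2% in those broad peaks. In the narrower ones it was 78.1 to 81.8%, and the intervals overlap. In all, 16 of the 121 broad peaks without a partner had no replicate 2 peak within 200 kb. Of these, 3 followed each other on chromosome 5: the strong peak at 149862097 (3880 bp, score 260.2, rank 7), the wide one at 149921238 (7021 bp, score 51.7) and one at 150179593 to 150183540 (3948 bp, score 78.2). No narrower replicate 1 peak lay between them, and their nearest replicate 2 peaks were 255480, 314621 and 296905 bp away. Another strong one was chromosome 7 at 4099719 to 4103753 (4035 bp, score 208.8, rank 21), at 348952 bp from any. The farthest, at 1439564 bp, was a peak of 3003 bp on chromosome 14 at 41725967 to 41728969.

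Broad peaks lay closer to other replicate 1 peaks than narrower ones did. Another replicate 1 peak was less than 5 kb away from 38 of 276 (13.8%, 9.93 to 18.4%), against 7.83% of all 3600 peaks and 7.34% (6.48 to 8.28%) of the narrower ones. Within 20 kb the numbers were 92 of 276 (33.3%, 27.8 to 39.2%), 20.4% of all and 19.4% (18.0 to 20.8%) of the narrower ones. The share for broad peaks was the higher in each of the 4 score groups, at 28 against 20.5% in the lowest and 28.9 against 18.1% in the best. It was 22.6% (12.3 to 36.2%) among peaks broad in both replicates, 31.4% (22.5 to 41.3%) among those with a partner under 3000 bp and 39.7% (30.9 to 48.96%) among those without a partner. Measured between midpoints, so that the width of the broad peak itself does not shorten the distance, another replicate 1 peak lay within 20 kb of 87 broad peaks (31.5%, 26.1 to 37.4%), against 19.3% of all and 18.3% (17.0 to 19.7%) of the narrower ones. Within 5 kb the shares were 6.16% (3.63 to 9.68%) and 5.29% (4.56 to 6.11%), with overlapping intervals. Spacing comes from the list the rule used and is a description.

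In 7 cases 2 broad peaks lay less than 5 kb apart, and 8 of these 14 peaks had a partner. The closest pair was on chromosome 4 at 135100632 to 135104391 and 135104408 to 135108307, 16 bp apart, with scores of 122.7 and 82.2. One replicate 2 peak of 2085 bp bridged the gap, covering 12 bp of the first, and lay mostly in the second. On chromosome 5 the peaks at 143573983 to 143579390 (5408 bp, score 206.5) and 143579537 to 143584004 (4468 bp, 102.6) were 146 bp apart and met 2 replicate 2 peaks each. Of these replicate 2 peaks, 1 bridged the gap and is counted for both. On chromosome 7 those at 144504558 to 144508321 (167.2) and 144508531 to 144511733 (96.6) were 209 bp apart, and each had a partner of its own, of 1712 and 3277 bp. On chromosome 1 the pair at 134086249 to 134090308 (156.5) and 134093322 to 134096922 (103.9), 3013 bp apart, had no replicate 2 peak within 98422 bp. The other 3 pairs lay on chromosome 2 (32028503 and 32035377, neither with a partner) and chromosome 7 (13612673 with 13618606, and 25282973 with 25290162, the second of each with a partner).

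Such near neighbours bear on where a broad region is taken to end. When replicate 1 peaks less than 500 bp apart were joined, a choice made after the values were seen, 41 joins were made on the 16 chromosomes and the number of regions of at least 3000 bp went from 276 to 290. The widest joined region took in 3 replicate 1 peaks on chromosome 5 at 143573983 to 143586141, 12159 bp, of which 4 replicate 2 peaks covered 77.6%. The next were on chromosome 19 at 7337929 to 7346678 (8750 bp, 19.2% covered) and chromosome 4 at 135100632 to 135108307 (7676 bp, 46.6%).

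The same question was put from the side of replicate 2. On the 16 chromosomes 202 of its 4762 peaks (4.24%) were at least 3000 bp wide, with a maximum of 7216 bp and a median score of 127.8, against 72.8 for its narrower peaks. Of these 202, 107 (52.97%, 45.8 to 60.01%) overlapped a replicate 1 peak, against 35.4% of all 4762 and 34.6% (33.2 to 36.0%) of the narrower ones. Their replicate 1 partners had a median width of 2983 bp, against 1643 bp for the partners of narrower replicate 2 peaks. The partner was at least 3000 bp wide for 53 of the 107, against 110 of the 1579 narrower replicate 2 peaks with a partner. By bases, 39.7% of the broad and 32.0% of the narrower replicate 2 peaks were covered by replicate 1 peaks, a difference of 7.63 points. The interval, 0.932 to 14.6, is only approximate, since it treats the share of bases as a share of whole peaks.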

How the data were processed

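The peak lists of 2 AHCY ChIP-seq libraries from E14 cells were analysed, with groups and replicate numbers from the sample titles. Peaks carry names with the prefix MACS, per the file headers and columns, while version, limits and control are not stated in the labels or headers. The track line of replicate 1 speaks of a pool and that of replicate 2 of an IgG pool. The submitters' processing notes name mm9, Bowtie and TopHat without roles or versions. The score is the authors' deposited value per peak, on an unstated scale with a lowest value of 50, and was used within its own list only. The gene table at hand is of GRCm38, whose last gene on chromosome 7 ends before 19 of the 311 replicate 1 peaks there. It is thus another assembly, so no genes were assigned and no sequence is shown.

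Width is end minus start. Overlaps were computed with Python 3.11.15, numpy 2.4.6 and pandas 2.3.3, intervals with scipy 1.17.1 and statsmodels 0.14.6, and plots with matplotlib 3.10.9. The partner is the replicate 2 peak with the most shared bases. The overlap code, tested on simulated data, gave the planted answer for 1000 of 1000 peaks. Named regions are the 5 widest, the 5 best-scoring, the 5 with the widest partner, the 5 widest without one, the widest per chromosome, those on either side of the limit and those behind small counts. Regions with 2 partners, close pairs, those with like borders and those far from replicate 2 were named after their values were seen. The members, lists and alternatives were chosen with earlier results of these data known.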

Additional observations from a re-analysis of the deposited data

How the results depend on the processing

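The number of broad peaks was 546 with a limit of 2500 bp and 70 with 4000 bp. The replicate 2 list, taken in place of replicate 1, held 202. Leaving out replicate 2 cannot change the 276, since the rule uses replicate 1 alone. The share with a partner was 39.9% with mutual cover of 50%, 47.5% by midpoint, 42.8% with replicate 2 scores at or above their list median and 47.2% with both lists so limited; without replicate 1 as the defining library it was 52.97%. Broad minus narrower, that share was 10.3 points as reported. It was 10.5 with 50% of the shorter peak, 11.1 with a limit of 2500 bp, 11.1 with replicate 2 scores limited, 10.4 on all chromosomes and 11.1 with near peaks joined, each with an interval above 0, and 7.80 (-3.91 to 19.1) with 4000 bp and 12.2 (-3.33 to 28.0) in score group 2. It changed sign with mutual cover (-2.20), with replicate 1 scores at or above the median (-0.568), in score groups 1, 3 and 4, counted from the lowest (-2.14, -14.2 and -1.49) and when weighted by 4 (-2.57) or 10 score groups (-4.07). Of the settings that changed sign, only score group 3 had an interval wholly below 0 (-25.8 to -1.32). The intervals of the others included 0, apart from the weighted differences, which have no interval. The difference was 3.51 (-2.55 to 9.63) by midpoint and 1.69 (-5.33 to 8.79) with both lists limited. Without replicate 1 as the defining library it was 18.3 (11.3 to 25.2). The share of bases covered was 29.6% in broad peaks with replicate 2 scores limited. Broad minus narrower, it was -2.06 points as reported, 1.47 with replicate 2 scores limited, -10.3 with replicate 1 scores limited, -10.8 and -11.6 when weighted by score, and 7.63 without replicate 1 as the defining library. The medians of partner width moved by under 30 bp with the widest partner or the span of all. The cause of these shifts was not tested. No paired analysis was possible because the only groups compared are peaks of 1 library each. Read depth is unknown, so it is unknown which regions without a partner were below detection.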
